A study of Mus musculus with 8 samples.

Results

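The 8 genes described here belong to the cystatin superfamily of protease inhibitors, and they were picked by symbol from the 55416 genes of an RNA-seq count table. They are the stefin A genes *Stfa1*, *Stfa2*, *Stfa3* and *Stfa2l1*, stefin B (*Cstb*), cystatin C (*Cst3*), cystatin M/E (*Cst6*) and fetuin B (*Fetub*). The study asked what the nuclear receptor RORα does in keratinocytes of mouse epidermis, and sequenced RNA from the back-skin epidermis of pups at postnatal day 4. Of the 8 libraries, 4 were labelled WT (controls A1, B1, C1 and C6) and 4 carried the label of an epidermal *Rora* knockout (*Rora* EKO, numbered A3, B4, C2 and C3). The knockout came from mating *Rora* flox/flox mice with mice carrying K14-Cre, a transgene driven by the human keratin 14 promoter, which is active in basal keratinocytes and the cells that descend from them, so cells of other lineages in the peeled sheet keep an intact gene. Whether the control pups carried the floxed allele or the transgene is not given in the sources used here. All 8 sheets were freed from the dermis by brief heating, and no other treatment is named. Nothing in the labels says that the letters A, B and C mark litters or batches, or that each library is a separate animal, so p-values measure the spread between these libraries.

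Cystatins block papain-like cysteine proteases by inserting a hairpin loop into the active site. Stefins (type 1) lack a signal peptide and work inside the cell, type 2 cystatins such as cystatin C and cystatin M/E are secreted, and fetuins (type 3) are plasma proteins with 2 cystatin domains made mainly by the liver. In the epidermis, stefin A is a precursor of the cornified envelope, and cystatin M/E restrains cathepsin L and legumain, which act upstream of transglutaminase 3 in cornification. Fetuin B differs from its relatives in its target, since it is known as an inhibitor of the astacin protease ovastacin in the egg.

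The inhibitory loop is shown first because it is what the members share, and because *Stfa2* and *Stfa2l1* carry a different codon in it than the other stefins listed. Each line gives 75 coding bases of the canonical GENCODE transcript on GRCm39, read 5′ to 3′, with the 15 bases that encode the glutamine-X-valine-X-glycine loop in capitals. The *Stfa1* stretch lies in a single exon, and the other 7 stretches cross an exon junction.
Stfa1: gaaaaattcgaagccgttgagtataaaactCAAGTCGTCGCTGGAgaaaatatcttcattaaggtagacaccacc
Stfa2: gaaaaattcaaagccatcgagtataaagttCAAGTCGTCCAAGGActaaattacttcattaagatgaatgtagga
Stfa3: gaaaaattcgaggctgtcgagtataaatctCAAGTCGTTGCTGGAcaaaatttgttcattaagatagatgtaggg
Stfa2l1: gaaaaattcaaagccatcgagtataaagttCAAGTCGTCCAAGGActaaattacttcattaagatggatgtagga
Cstb: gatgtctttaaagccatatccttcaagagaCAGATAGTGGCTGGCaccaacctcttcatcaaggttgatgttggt
Cst3: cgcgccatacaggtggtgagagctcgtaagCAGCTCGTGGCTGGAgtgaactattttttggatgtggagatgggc
Cst6: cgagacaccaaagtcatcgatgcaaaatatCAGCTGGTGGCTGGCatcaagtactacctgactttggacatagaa
Fetub: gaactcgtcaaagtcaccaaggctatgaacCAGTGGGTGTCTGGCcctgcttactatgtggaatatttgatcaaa

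Counted from 1 at the first capital and with *Stfa2* as the reference, *Stfa2l1* had an identical loop, and 74 of its 75 bases matched. *Stfa1* differed from *Stfa2* in the loop by C10G, A11C and A12T, which together replace the fourth codon of the loop, and *Stfa3* differed by C9T, C10G, A11C and A12T. The same 3 changes of the fourth codon were present in *Cstb*, *Cst3* and *Cst6*, so the *Stfa2* and *Stfa2l1* codon stood apart from the other members that share the stefin or type 2 fold. Over the whole coding sequence, *Stfa2* and *Stfa2l1* were 96.4% identical, and *Stfa2* and *Stfa3* were 80.9% identical.

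The members sit at 5 places in GRCm39. *Stfa2l1* (ENSMUSG00000059657, chr16:35977176-35982332, plus strand), *Stfa1* (ENSMUSG00000071562, chr16:36093823-36105817, plus strand), *Stfa2* (ENSMUSG00000022902, chr16:36224305-36241288, minus strand) and *Stfa3* (ENSMUSG00000054905, chr16:36270893-36275884, minus strand) belong to a cluster of 11 stefin A genes at chr16:35940316-36275884. *Fetub* (ENSMUSG00000022871, chr16:22736127-22758528, plus strand) lies elsewhere on the same chromosome, next to its paralog *Ahsg*. *Cstb* (ENSMUSG00000005054) is at chr10:78261499-78263991 on the plus strand, *Cst3* (ENSMUSG00000027447) at chr2:148713635-148717887 on the minus strand, and *Cst6* (ENSMUSG00000024846) at chr19:5394733-5399602 on the minus strand. These spans are whole genes, and the counts were made over their exons.

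Library totals ran from 17286903 to 26705533 expected counts, and 3 counts corresponded to between 0.113 and 0.196 counts per 1000000 (CPM), so the abundant members were measured far above counting error. The targeted gene did not separate the genotypes at gene level, since *Rora* had 157.7, 193, 187 and 309 CPM in controls A1, B1, C1 and C6 and 153.7, 189, 237 and 206 CPM in *Rora* EKO A3, B4, C2 and C3 (log2 fold change -0.11, standard error, SE, 0.245, adjusted p = 0.877 in edgeR). A gene-level count also takes reads from exons outside the floxed part, so it does not check the labels. *Xist* was at 416 and 527 CPM in control C1 and C6 and at or near 0 in the other 6 libraries, which means that both libraries with *Xist* are controls. The suprabasal keratins *Krt1* and *Krt10* were at 17165 CPM or more in every library, as the label of epidermis calls for. The basal keratins *Krt5* (63.4 to 371 CPM) and *Krt14* (61.1 to 706 CPM) were far lower and varied widely between libraries. Neutrophil markers, relevant because stefin A genes are also abundant in neutrophils, summed to between 2.79 and 5.93 CPM in control and between 3.33 and 9.25 CPM in *Rora* EKO libraries over 13 genes, of which 5 were at or under 3 counts everywhere and 1, *Itgam*, passed the low-count filter, at 3.90 of the 9.25 CPM in *Rora* EKO C2, which had the highest sum. *Trem1* of that list had 0 counts in all 4 controls and 1, 29, 21 and 12 counts in *Rora* EKO A3, B4, C2 and C3, and *Ngp* had 3, 2, 0 and 6 counts against 7, 4, 33 and 4. The myeloid gene *Lyz2*, from the leukocyte list, had a log2 fold change of 1.89 (SE 0.804, adjusted p = 0.206 in edgeR). *Itgam* had a log2 fold change of -0.18 (adjusted p = 0.839 in edgeR), and *Mmp9* averaged 0.305 CPM in control and 0.232 CPM in *Rora* EKO libraries. The sum of 8 macrophage and Langerhans cell genes was 57.7 to 161 CPM in control and 67.0 to 78.5 CPM in *Rora* EKO libraries. These genes were singled out after their values were seen. *Rora* EKO C2, with the highest neutrophil sum, also had the highest *Stfa2* level of the 8 libraries. *Rora* EKO A3, with a neutrophil sum of 3.33 CPM and a *Trem1* count of 1, had the second highest *Stfa2* level. The part of such cells in the stefin values was not tested.

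Of the 8 members, *Stfa2* and *Fetub* rose in the *Rora* EKO epidermis, none fell, and 5 did not pass the cutoffs of adjusted p 0.05 and 1.5-fold change. *Stfa2l1* did not pass the filter on low counts. Before adjustment, edgeR put *Cst3* alone below 0.05 among members with lower levels (0.0379), and DESeq2 called none lower. Over all 13147 genes that passed the filter, 302 (2.30%) were called higher and 423 (3.22%) lower. The median log2 fold change was 0.40 over the 7 tested members and -0.043 over all tested genes. In 3 members every *Rora* EKO library was above every control library and in 1 every *Rora* EKO library was below, against 5.40% and 7.54% of all tested genes. A bulk count cannot tell a change in the number of cells of a kind from a change in RNA per cell.

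**Figure D1:**
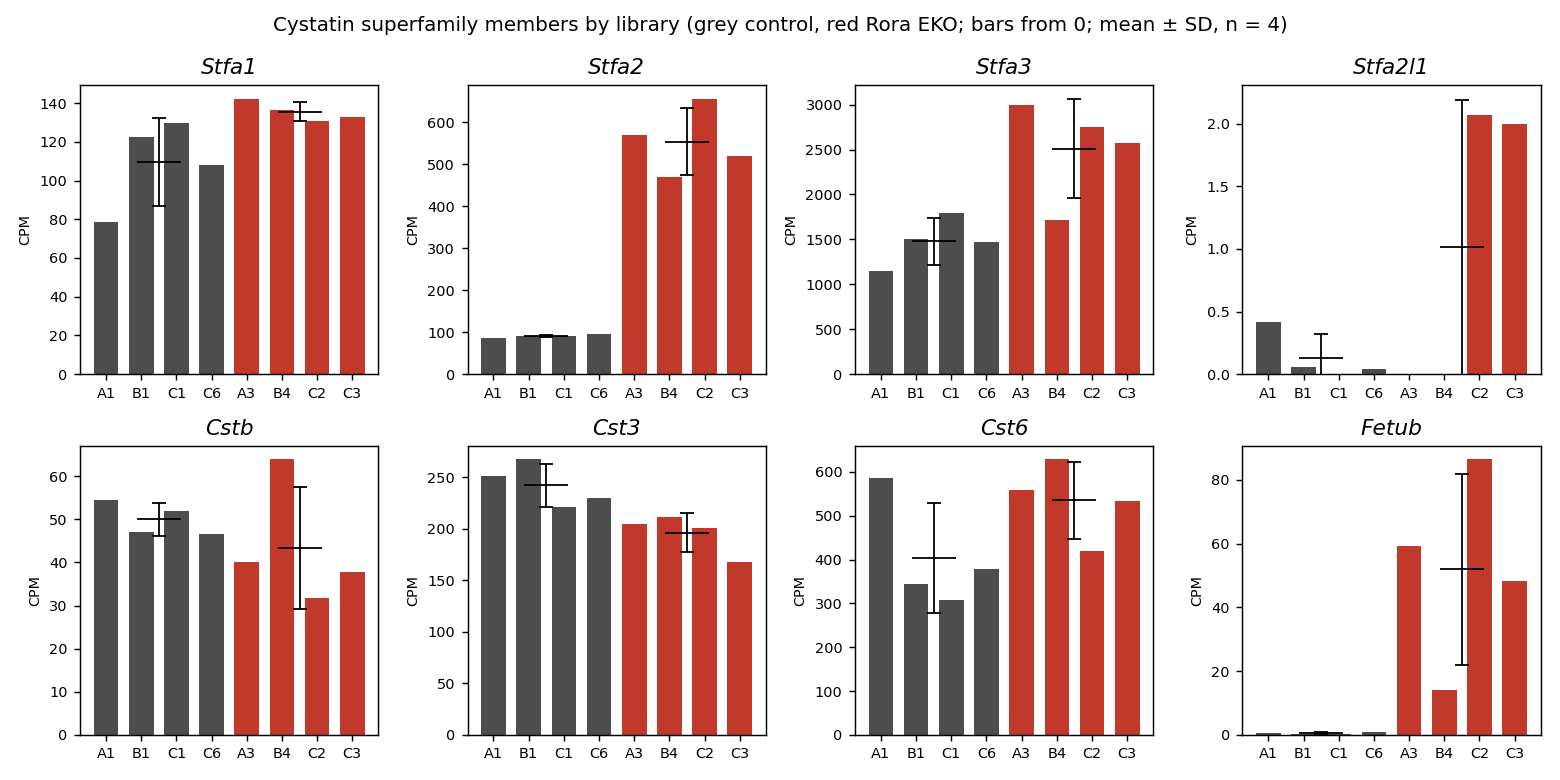
Level of each of the 8 members in CPM (vertical axes, linear from 0, scaled per gene) in the 4 control libraries (grey bars) and the 4 Rora EKO libraries (red bars), with the mean and SD of each genotype in black (n = 4; the part of an SD bar below 0 is not drawn). Stfa2 and Fetub were higher in every Rora EKO library than in any control library, and Stfa2l1 was above 1 CPM in C2 and C3 alone.

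*Stfa2*, a cytosolic stefin A, was the member with the tightest levels among controls. It had 87.1, 91.2, 91.0 and 94.3 CPM in controls A1, B1, C1 and C6, and 569.7, 468, 655.5 and 519 CPM in *Rora* EKO A3, B4, C2 and C3. The controls spanned a 1.08-fold range and the *Rora* EKO libraries a 1.40-fold range, and the lowest *Rora* EKO library was 4.97-fold above the highest control. The means were 90.9 ± 2.95 CPM and 553 ± 79.8 CPM (SD, n = 4 each). On the log2 scale the fold change was 2.61 (SE 0.106, adjusted p = 2.345e-05 in edgeR). By unadjusted p it ranked 6 of the 13147 genes tested. The rise was of like size within each title letter, at 6.54-fold for A (A3 against A1), 5.14-fold for B (B4 against B1) and 6.34-fold for C (C2 and C3 against C1 and C6). With the 2 *Xist*-positive controls left out, the log2 fold change was 2.68 (adjusted p = 0.0018 in edgeR).

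*Fetub* went from a trace to a moderate level. It had 0.609, 0.383, 0.331 and 1.01 CPM in controls A1, B1, C1 and C6, from 16, 7, 7 and 27 counts, and 59.3, 13.9, 86.4 and 48.3 CPM in *Rora* EKO A3, B4, C2 and C3, from 909, 339, 1794 and 968 counts. All control libraries were above 3 counts, and the lowest *Rora* EKO library, B4, was 13.7-fold above the highest control, C6. The log2 fold change was 6.41 (SE 0.649, adjusted p = 0.000492 in edgeR), which ranked 7 when all tested genes were ordered from the largest rise. The *Rora* EKO libraries differed among themselves by 6.21-fold, so the size of the rise was measured less closely than that of *Stfa2*. It was 97.4-fold for letter A, 36.4-fold for B and 100.2-fold for C. Without control C6, in which liver transcripts were highest, it was 6.86 on the log2 scale (adjusted p = 0.00162). Without the *Xist*-positive controls the log2 fold change was 6.70 (adjusted p = 0.0107 in edgeR).

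Because fetuin B is best known from liver and plasma, *Fetub* was set beside liver transcripts in the same libraries. *Ahsg*, the fetuin A gene, lies 17.9 kb from *Fetub* and had 0.837, 0.383, 0.142 and 18.1 CPM in control A1, B1, C1 and C6 and 5.22, 0.699, 10.1 and 4.89 CPM in *Rora* EKO A3, B4, C2 and C3. Its genotypes overlapped (log2 fold change 0.08, SE 1.592, adjusted p = 0.989 in edgeR), with control C6 the highest of the 8 libraries. The summed level of 7 hepatocyte genes was 2.09, 0.929, 1.04 and 95.6 CPM in the controls and 5.48, 1.73, 18.5 and 5.74 CPM in the *Rora* EKO libraries, and albumin (*Alb*) alone gave 62.4 CPM in control C6. The library with the highest liver sum, C6, had 1789 *Ahsg* counts per 100 *Fetub* counts. Control A1, B1 and C1, with few counts of either gene, had 137.5, 100 and 42.9, and the *Rora* EKO libraries had 8.80, 5.01, 11.7 and 10.1.

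Within the *Rora* EKO group, the order of *Fetub* (C2, A3, C3, B4) was also the order of *Ahsg* and of 3 erythroid genes. The erythroid sum was 403, 83.5, 666 and 208 CPM in *Rora* EKO A3, B4, C2 and C3, and 71.3, 51.9, 31.8 and 215 CPM in control A1, B1, C1 and C6. Among the controls, C6 had both the highest erythroid sum and the highest *Fetub* level (1.01 CPM). The erythroid genes *Hba-a1*, *Hbb-bs* and *Alas2* had log2 fold changes of 1.77, 1.94 and 1.67 and were not called (adjusted p = 0.165, 0.201 and 0.279 in edgeR). Of the 7 hepatocyte genes 2 passed the low-count filter, *Alb* and *Ahsg*, and neither was called. The part of such transcripts in the spread of *Fetub* among *Rora* EKO libraries was not tested. The tested genes on both sides of *Fetub*, which are *Dnajb11* and *Ahsg* to the left and *Eif4a2* and *Rfc4* to the right, did not pass the cutoffs, with log2 fold changes of 0.16, 0.08, -0.10 and -0.40.

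**Figure D2:**
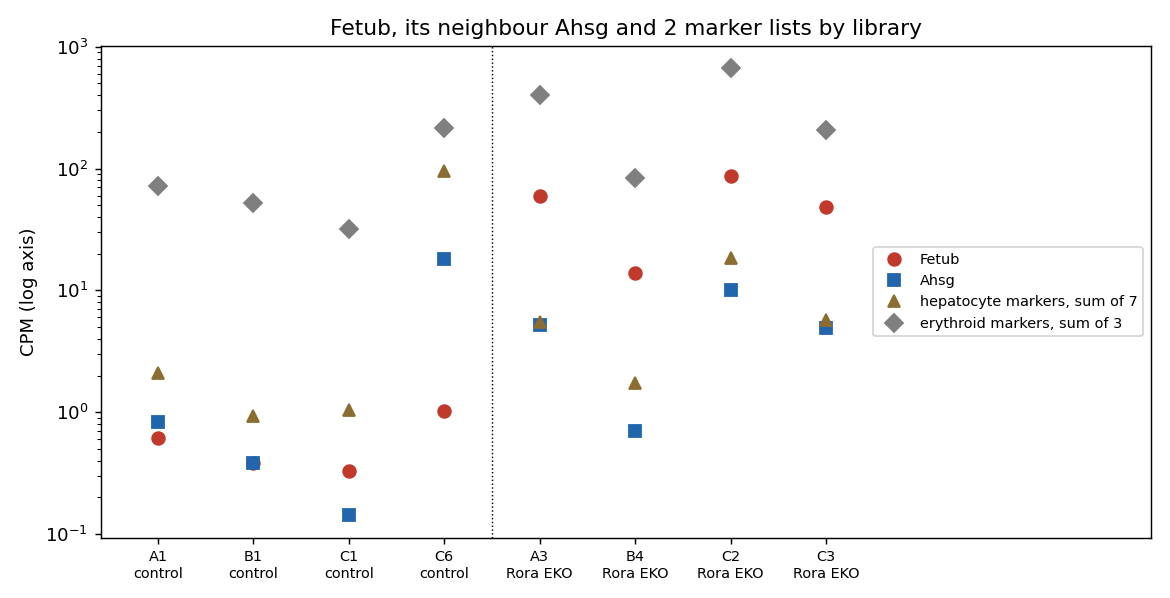
CPM on a log axis of Fetub (red circles), Ahsg (blue squares), the sum of 7 hepatocyte markers, Ahsg included (brown triangles), and the sum of 3 erythroid markers (grey diamonds) in each library, controls left of the dotted line and Rora EKO right of it. Fetub lay at or below 1.01 CPM in the 4 controls and at or above 13.9 CPM in the 4 Rora EKO libraries, while the hepatocyte sum was highest in control C6.

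*Stfa3* had the highest level per length of the members. It had 1153, 1506, 1790 and 1472 CPM in control A1, B1, C1 and C6, and 2995, 1721, 2757 and 2575 CPM in *Rora* EKO A3, B4, C2 and C3. Only B4 fell inside the control range, just under control C1. The log2 fold change was 0.76 (SE 0.220), and the gene missed the cutoff with an adjusted p of 0.089 (edgeR). It passed without *Rora* EKO replicate B4 (log2 fold change 0.91, adjusted p = 0.0389) and in DESeq2 with all 8 libraries (adjusted p = 0.00452).

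*Stfa1* had 78.5, 122.6, 130 and 108 CPM in the controls and 142, 136, 131 and 133 CPM in the *Rora* EKO libraries, in the same replicate order. The genotypes did not overlap, but control C1 and *Rora* EKO C2 were within 1.01-fold of each other. The log2 fold change was 0.30 (SE 0.164, adjusted p = 0.36 in edgeR).

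*Stfa2l1*, the near-copy of *Stfa2*, was counted almost entirely in 3 libraries. Its counts were 11, 1, 0 and 1 in control A1, B1, C1 and C6 and 0, 0, 43 and 40.01 in *Rora* EKO A3, B4, C2 and C3. At 2.07 and 1.997 CPM in C2 and C3 it amounted to 0.316 and 0.385 per 100 *Stfa2* counts there. The gene shared 16.4% of the 50-base windows of its transcript with *Stfa2*, and 13.2% of those of *Stfa2* were shared with it, so the split of reads between them is uncertain. The sum of both, which does not depend on that split, was 87.5, 91.3, 91.0 and 94.3 CPM in the controls and 569.7, 468, 658 and 521 CPM in the *Rora* EKO libraries.

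The pattern of *Stfa2l1* across libraries recurred in neighbours picked out after their values were seen. *Cstdc4* had 0.305, 0.164, 0.142 and 0.300 CPM in the controls and 0.131, 0, 2.80 and 2.30 CPM in *Rora* EKO A3, B4, C2 and C3. *Csta2* had 1.16 and 1.15 CPM in C2 and C3 and at most 0.266 CPM in the other 6 libraries. Both failed the low-count filter, and a fit on all genes with at least 1 count gave them adjusted p-values of 0.26 and 0.19, with 0.327 for *Stfa2l1* (edgeR). *Cstdc4* and *Csta2* also share sequence with each other (20.6% and 39.2% of their 50-base windows), so they are not separate measurements. *Csta3*, which shares no 50-base window with the others, had 8 and 6 counts in C2 and C3 and at most 3 counts in the other 6 libraries.

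Other genes of the stefin A cluster added to the picture. *Cstdc6* rose from 2.97, 3.39, 5.92 and 2.22 CPM in the controls to 11.9, 11.5, 11.4 and 11.1 CPM in the *Rora* EKO libraries (log2 fold change 1.67, SE 0.290, adjusted p = 0.00652 in edgeR). Its counts are uncertain, since 33.7% of its 50-base windows occur in *Stfa1* or *Cstdc5* as well. The sum of these 3 genes, which is free of a split among them, was 689.7, 1128, 1158 and 994 CPM in the controls and 1463, 1604, 1579 and 1466 CPM in the *Rora* EKO libraries, a ratio of means of 1.54. *Cstdc5* had 608, 1002, 1022 and 883.5 CPM in the controls and 1309, 1456, 1436 and 1323 CPM in the *Rora* EKO libraries, without overlap (log2 fold change 0.65, SE 0.178, adjusted p = 0.0864). *Csta1* was not called, with 328, 377, 347 and 380.3 CPM against 299, 364, 438 and 352 CPM (log2 fold change 0.02, SE 0.124, adjusted p = 0.973). The genes that flank the cluster, *Mix23* and *Fam162a* to the left and *Cd86* and *Slc15a2* to the right, were not called in either direction.

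**Figure D3:**
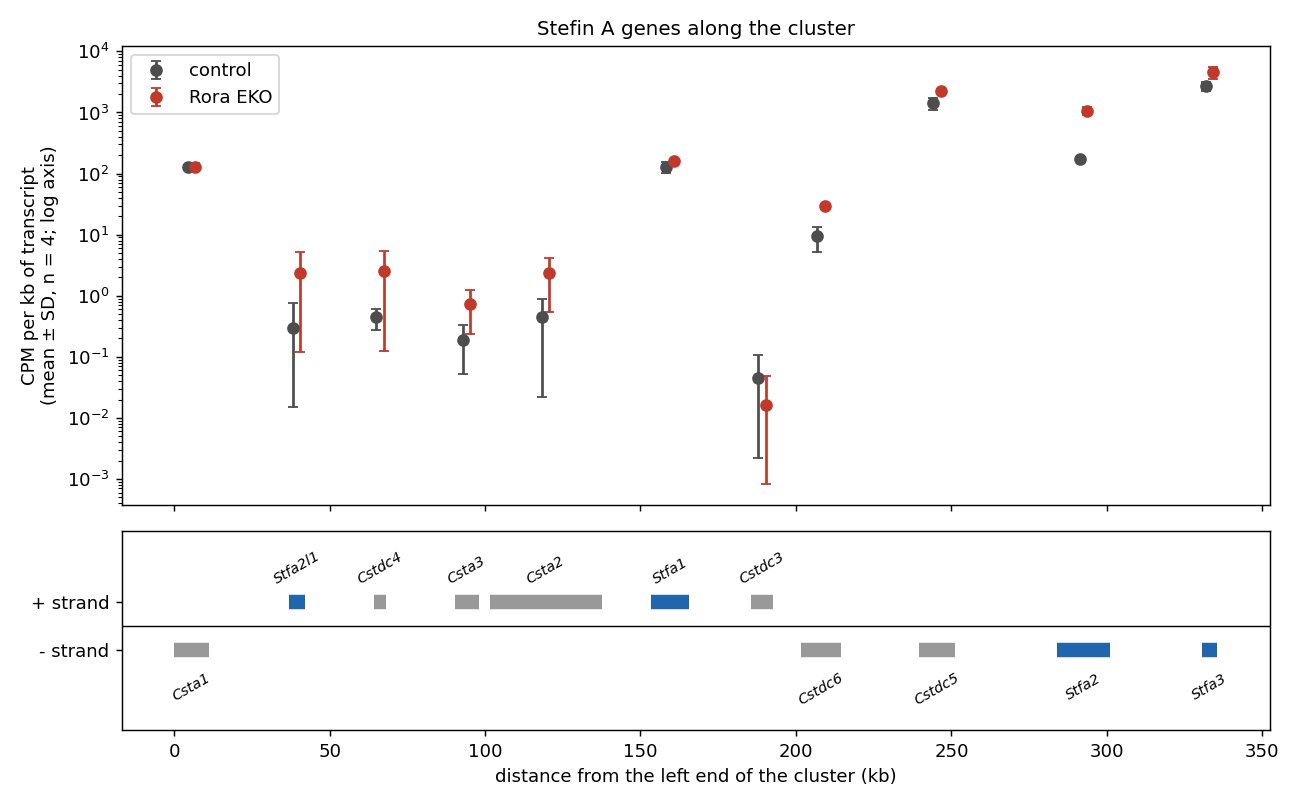
Top, level of each of the 11 stefin A genes in CPM per kb of transcript (log axis; mean ± SD, n = 4; lower bars are shortened where they would reach 0) in control (grey) and Rora EKO (red) libraries at the gene's place along the cluster. Bottom, the genes drawn to scale by strand in kb from the left end of the cluster, members in blue. Stfa2 and Cstdc6 passed the cutoffs, and Csta1 at the left end had like means of 358 and 363 CPM before scaling by length.

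Summed over its 11 genes, the cluster made up 2259, 3103, 3386 and 2941 CPM in control A1, B1, C1 and C6 and 5327, 4158, 5436 and 4918 CPM in *Rora* EKO A3, B4, C2 and C3. The ratio of the means was 1.70, and 1.56 without *Stfa2*, and the genotypes did not overlap on either sum. The sum does not depend on how reads were split among these 11 genes. *Stfa2* gave 3.17 ± 0.502% of the cluster's CPM in control and 11.1 ± 0.682% in *Rora* EKO libraries (SD, n = 4 each), with ranges of 2.69% to 3.86% and 10.6% to 12.1%. *Stfa3* kept about the same share, 50.6 ± 1.82% and 50.2 ± 6.29% (SD, n = 4 each), while the share of *Csta1* was 12.5% and 7.39%. No test was made on these sums and shares. The summed level of 7 keratinocyte genes, mostly *Krt1* and *Krt10*, was also higher in every *Rora* EKO library (86227 to 108214 CPM) than in any control (45956 to 71157 CPM). No gene of that list was called, and the list was split in direction. Log2 fold changes were 0.70 for *Krt1*, 0.66 for *Krt10*, 1.12 for *Krt14* and 0.01 for *Flg*. They were -0.22 for *Krt5*, -0.20 for *Loricrin* and -0.41 for *Ivl*. The part of the keratinocyte sum in the cluster sum was not tested.

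**Figure D4:**
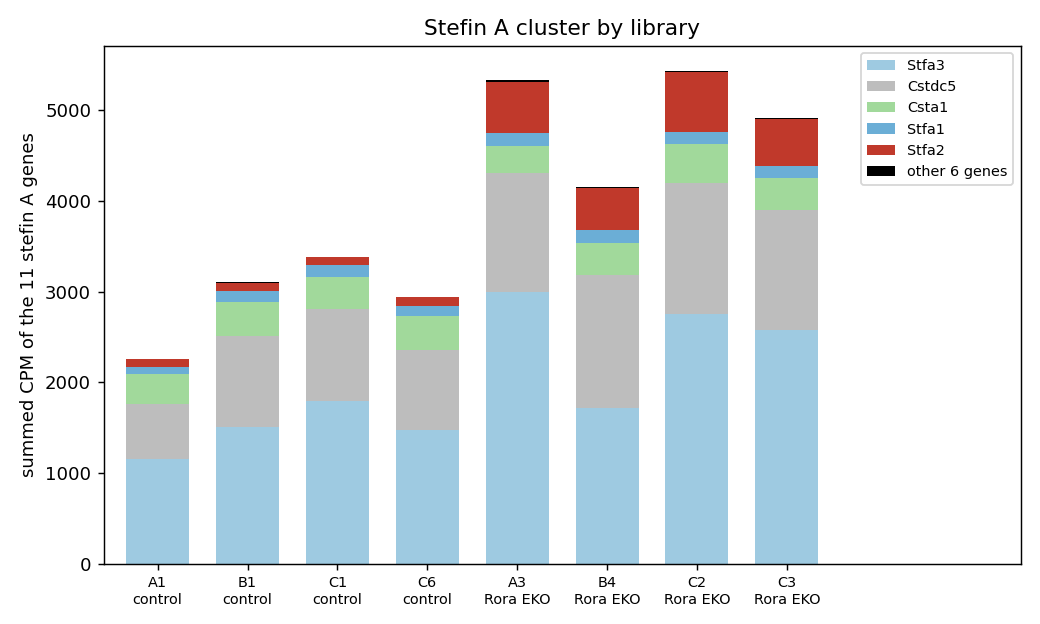
Summed CPM of the 11 stefin A genes in each library (bars from 0), split by gene, with the genes drawn in black the 6 of lowest count. The Rora EKO bars reach 4158 to 5436 CPM and the control bars 2259 to 3386 CPM, and the Stfa2 part (red) grew from about 3.17% to 11.1% of the bar.

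The sequence before the start of the stefin genes was compared because RORα binds DNA as a monomer at the letters AGGTCA with an AT-rich flank. Promoter sequence from RefSeq on GRCm38.p6 was at hand for *Stfa1*, *Stfa2*, *Stfa3*, *Stfa2l1*, *Cst3* and, with 2 starts, *Fetub*. Searched on both strands of the 250 bases upstream, AGGTCA was found in *Stfa2* (plus strand of the gene, 103 bases before the start) and *Cst3* (minus strand, 114 bases before), and in none of the other members' stretches. *Csta1* and *Csta2*, other genes of the cluster, held it on the minus strand. It occurs in 14% of 32851 promoters of the same length. The longer TAGGTCA, which contains it, was found in *Cst3* only, and occurs in 2.23% of promoters. TGGGTCA and TGANTCA, in 3.24% and 6.75% of promoters, were in none of the 6 members searched. The aligned 30 bases of the stefin genes show where *Stfa2* differs, with the hexamer in capitals.
Stfa2: aagacttgcctgAGGTCAcactcattcccc
Stfa2l1: aagacttgcctgAGATCAcactcattcccc
Stfa1: aagacttgcctaAGGCCAcactcatttccc
Stfa3: aagatttgcctgAGGCCAcactcattttcc
Cstdc5: aagacttgcctaAGGCCAcactcatttccc

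The *Stfa2* stretch is chr16:36408449-36408478 of GRCm38.p6, minus strand. Counted from 1 at the first capital, the hexamer differed from that of *Stfa2* by G3A in *Stfa2l1* and by T4C in *Stfa1*, *Stfa3* and *Cstdc5*. The RefSeq start used here lies 197, 94, 130 and 129 bases into the canonical GENCODE transcripts of *Stfa1*, *Stfa2*, *Stfa3* and *Cst3*, so upstream bases within that distance can lie in a transcript. The *Cst3* match falls within it and the *Stfa2* match does not. Only canonical transcripts were compared and no coordinates were converted between builds. Whether the *Stfa2* match lies inside the span of the whole gene was therefore not checked. The match is a description of letters, and no binding was measured. The bases just before the *Stfa2* match, tgcctg, are mostly G and C. Of the genes that hold AGGTCA, *Stfa2* rose, *Cst3* and *Csta1* did not pass the cutoffs, and *Csta2* was not tested.

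The type 2 cystatins and stefin B were not called. *Cst6*, the secreted cystatin M/E of the upper epidermis, had 587, 344, 307 and 379 CPM in control A1, B1, C1 and C6 and 559.7, 628, 419 and 533 CPM in *Rora* EKO A3, B4, C2 and C3. Control A1 lay within the *Rora* EKO range, and the other controls were below it. The summed level of 4 hair shaft genes was likewise high in control A1, at 3407 CPM against 1179, 1125 and 845 CPM in B1, C1 and C6, and 2674, 2115, 1539 and 1519 CPM in the *Rora* EKO libraries, and its part in the *Cst6* values was not tested. The log2 fold change was 0.40 (SE 0.238, adjusted p = 0.399 in edgeR), and 0.64 with an adjusted p of 0.0578 when control A1 was left out.

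*Cst3*, the widely secreted cystatin C, was the member with lower levels in every *Rora* EKO library. It had 252, 267.5, 221 and 229.7 CPM in the controls and 205, 211, 201 and 168 CPM in the *Rora* EKO libraries. The gap between the groups was small, from 211 CPM in B4 to 221 CPM in C1, and the log2 fold change of -0.30 (SE 0.0967) had an adjusted p of 0.237 (edgeR). The ratio of *Rora* EKO to control was 0.814, 0.789 and 0.819 for letters A, B and C.

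*Cstb*, which encodes the ubiquitous stefin B, had 54.5, 47.1, 51.8 and 46.7 CPM in the controls and 40.1, 63.9, 31.7 and 37.8 CPM in the *Rora* EKO libraries. The *Rora* EKO libraries lay on both sides of the controls, with B4 the highest of all 8. The log2 fold change was -0.20 (SE 0.222, adjusted p = 0.687 in edgeR).

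**Figure D5:**
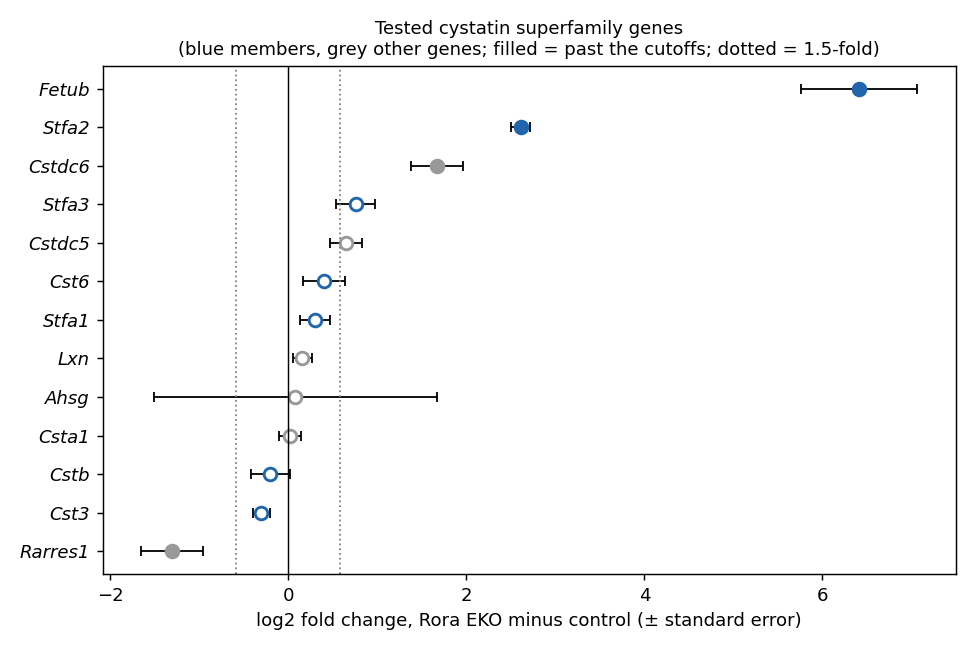
Log2 fold change, Rora EKO minus control, with its standard error for the 7 tested members (blue) and 6 other tested cystatin superfamily genes (grey), filled where the gene passed an adjusted p of 0.05 and 1.5-fold (dotted lines). Fetub (6.41), Stfa2 (2.61) and Cstdc6 (1.67) were past the cutoffs upward and Rarres1 (-1.30) downward.

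Set on a scale of CPM per kb of transcript, which allows levels of different genes to be compared, the control order was *Stfa3* (2701 ± 475), *Cst3* (262 ± 22.7), *Stfa2* (175 ± 5.68), *Stfa1* (129 ± 26.8), *Cst6* (102 ± 31.7), *Cstb* (43.8 ± 3.34), *Fetub* (0.372 ± 0.198) and *Stfa2l1* (0.298 ± 0.456), all as mean ± SD with n = 4. The library ranges of *Stfa1* and *Cst6* overlapped, as did those of *Fetub* and *Stfa2l1*, while the other neighbours in this order were apart in all 4 libraries. In the *Rora* EKO epidermis *Stfa2* stood above *Cst3*, at 1064 ± 153 against 212 ± 20.8 CPM per kb (SD, n = 4 each). *Fetub* at 33.1 ± 19.1 CPM per kb overlapped *Cstb* at 38.0 ± 12.4 CPM per kb, and *Stfa1* (160 ± 5.92) overlapped *Cst6* (135 ± 22.1). These levels use the length of a single canonical transcript per gene, and that of *Cst6* is long at 3951 bases.

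Beyond the members, a list of 32 names of cystatin relatives matched 24 genes, of which 6 passed the low-count filter, 1 rose, 1 fell and 4 were not called, with a median log2 fold change of 0.12. Of the 18 that did not pass, 10 were at or under 3 counts in every library. *Cstdc6*, given above, was the gene that rose. *Rarres1*, which encodes a transmembrane protein related to latexin, fell from 39.5, 42.4, 36.1 and 61.3 CPM in control A1, B1, C1 and C6 to 16.6, 9.57, 24.9 and 22.0 CPM in *Rora* EKO A3, B4, C2 and C3. The genotypes did not overlap (log2 fold change -1.30, SE 0.348, adjusted p = 0.028 in edgeR). Its call was lost without *Rora* EKO A3 (log2 fold change -1.21, adjusted p = 0.0742), control B1 (-1.32, 0.0721), *Rora* EKO C3 (-1.40, 0.0569) or control C6 (-1.08, 0.0708). It was also lost with *Xist* as a covariate (-1.15, 0.115) and in libraries without *Xist* only (-1.12, 0.13).

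The proteases and partners of these inhibitors were examined next. Of 22 listed genes, 14 passed the filter, 1 rose and none fell, and the median log2 fold change was 0.15. Of 11 cysteine cathepsins, 8 passed the filter and none was called by edgeR or DESeq2, with a median log2 fold change of 0.08. *Ctsc* alone had an unadjusted p below 0.05 (0.0221). *Ctsl*, whose product is bound by cystatin M/E, had 1406, 682, 248 and 214 CPM in control A1, B1, C1 and C6 and 1135, 1026, 676.5 and 338 CPM in *Rora* EKO A3, B4, C2 and C3. The controls alone spanned a 6.56-fold range, and no difference between genotypes was detected (log2 fold change 0.32, SE 0.753, adjusted p = 0.868 in edgeR). *Ctsb*, a lysosomal cathepsin, varied in a like manner, from 345 to 2118 CPM in control and from 512.5 to 1539 CPM in *Rora* EKO libraries (log2 fold change 0.02, SE 0.673, adjusted p = 0.993). *Lgmn*, the gene of legumain, had a log2 fold change of -0.08 (SE 0.327, adjusted p = 0.936).

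Among the transglutaminases of the list, which crosslink cornified envelope proteins, *Tgm5* rose from 38.0, 34.6, 26.7 and 41.5 CPM in the controls to 59.9, 69.0, 64.2 and 56.4 CPM in the *Rora* EKO libraries, without overlap (log2 fold change 0.83, SE 0.151, adjusted p = 0.0098 in edgeR). With *Xist* as a covariate the log2 fold change was 0.78 and the adjusted p 0.0629. *Tgm1* and *Tgm3* were also higher in all *Rora* EKO libraries but missed the cutoff, with log2 fold changes of 0.70 (SE 0.188, adjusted p = 0.0578) and 0.46 (SE 0.241, adjusted p = 0.294). Of the astacin proteases that a fetuin B could meet, *Mep1a*, *Mep1b* and *Tll2* had 0 counts in every library, the ovastacin gene *Astl* had at most 3 counts, and *Bmp1* was at 29.1 to 40.5 CPM in control and 29.3 to 44.0 CPM in *Rora* EKO libraries.

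The genes whose pattern was most like that of *Stfa2* were found by the root mean square difference of centred log2 CPM over the 8 libraries, among all tested genes. They were *Sprr2a3* (0.196), *Tmprss11b* (0.216) and *Sprr2a1* (0.229). *Sprr2a3* and *Sprr2a1* encode small proline-rich cornified envelope proteins that share reads with their family, and they went from 11.4 and 13.5 CPM in control to 72.5 and 106 CPM in *Rora* EKO libraries on average. *Tmprss11b*, a membrane serine protease gene, had 0, 0, 0 and 1 counts in the controls and 11, 13, 11 and 11 counts in the *Rora* EKO libraries. Its log2 fold change was 5.15 in edgeR against 2.61 for *Stfa2*, so at these counts its place on the list is set by the prior count of 2 used for log2 CPM. For *Fetub* the nearest were *Serpinb3c* (0.869), *Papss2* (0.982) and *Isx* (1.13), at larger distances. The likeness rests on the same genotype difference and is a description.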

How the data were processed

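RNA-seq of 8 epidermal libraries, 4 per genotype, was analysed. The authors trimmed paired-end TruSeq Stranded mRNA reads with Skewer, aligned the pairs to GRCm39 by STAR 2.5.3a and estimated gene counts with RSEM. They deposited expected counts for 55416 Ensembl genes, without scaling for library size or length, and 2.99% of the values are not whole. The annotation release and the strand setting are not given in the sources used here. RSEM divides reads among paralogs, so stefin A genes with shared sequence are uncertain.

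Expected counts were rounded, filtered with filterByExpr and scaled with TMM factors (0.887 to 1.08). Genotypes were compared in 1 fit over 13147 genes with the quasi-likelihood test (legacy form) of edgeR 4.0.16 (R 4.3.3), no covariate and Benjamini-Hochberg adjustment over all of them. A gene was called at an adjusted p below 0.05 and a change above 1.5-fold. CPM values are per 1000000 TMM-scaled counts of the tested genes. Standard errors come from log2 CPM with a prior count of 2, and the floor of 3 counts covers counting error only. Scripts were tested on simulated data.

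Of the identifiers, 54749 were found in GENCODE release M39, the source of symbols, coordinates and transcripts. Promoters are from RefSeq on GRCm38.p6, with no coordinates converted. *BC100530*, *BC117090*, *Gm4758* and *Cst10* were not matched. The rule named all 8 members, other cystatin genes that were called or reached 10 CPM, called protease and partner genes with *Ctsl*, *Lgmn* and *Ctsb*, the 2 nearest tested genes on each side, and the 3 most alike genes per called member. Members and lists were chosen with earlier results of these data known. Alternatives were RLE or library-size scaling, DESeq2 1.42.0, the non-legacy test, no filter, a title-letter block, *Xist* as a covariate, libraries without *Xist* only, no fold cutoff, and each library left out. Plots were drawn with matplotlib 3.10.9 and alignments made with Biopython 1.88.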

Additional observations from a re-analysis of the deposited data

Results flagged for a closer look

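Within the 2 genotypes, 72 groups of 4 libraries (39 genes of the lists, in groups where a library exceeded 3 counts) were examined for a library far from the other 3. In 10 groups 1 library stood apart. By its nominal rate the rule marks about 1 in 20 groups by chance, but these groups are not independent, and control C6 accounts for 5 of the 10. *Stfa2l1* was the member among them, at 0.419 CPM in control replicate A1, with a gap to the nearest control of 0.87 of the group's range. *Ahsg* in control C6 was at 18.13 CPM, with a gap of 0.961 of the range. Control C6 also stood apart for *Kng1* (3.003 CPM), *Kng2* (0.150 CPM), *Hrg* (0.300 CPM) and *Spp2* (0.263 CPM), and *Rora* EKO C2 for *Kng1* (0.723 CPM). *Lxn*, the gene of the carboxypeptidase inhibitor latexin, was lowest in *Rora* EKO A3 at 2.02 CPM, with a gap of 0.852 of the range. *Lgmn* was highest in control A1 at 27.7 CPM, with a gap of 0.845 of the range. *Tll1*, an astacin protease gene, was at 0.261 CPM in *Rora* EKO A3, from 4 counts. Groups with few counts can pass this rule on a handful of reads.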

How the results depend on the processing

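*Stfa2* (log2 fold change 2.54 to 2.68) and *Fetub* (6.12 to 6.86) were past the cutoffs under all 16 alternatives, and *Cstdc6* (1.51 to 2.01) likewise. *Stfa1*, *Cstb*, *Cst3* and *Cst6* were never called and kept their sign. *Stfa3* was called in 2 alternatives, DESeq2 and without *Rora* EKO replicate B4. The 302 genes higher became 478 with DESeq2, 182 with *Xist* as a covariate, 147 in libraries without *Xist* only, and 174 to 383 with a library left out (174 without control B1, 188 without *Rora* EKO C3). The 423 lower became 167 in libraries without *Xist* only, which has fewer libraries, and 283 to 513 with a library left out. The other cystatin genes higher rose from 1 to 2 with DESeq2 or with the title letter as a block (*Cstdc5* added), and those lower fell from 1 to 0 with *Xist* as a covariate, in libraries without *Xist* only, and without A3, B1, C3 or C6 (*Rarres1* lost, range 0 to 1). The target genes higher went from 1 to 2 with RLE factors, DESeq2, the letter block or without control A1 (*Tgm1* added, range 1 to 2), and to 0 with *Xist* as a covariate. Apart from the constructions named, the cause of these moves was not tested. The title letters have no stated meaning, so the replicate block on them is a check alone. It called 420 genes higher and 579 lower and left the members' calls as they were. *Stfa2l1* is limited by its split between libraries, with 0 counts in *Rora* EKO A3 and B4 and 43 and 40.01 in C2 and C3.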

Other observations

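Other type 3 relatives, which are made mainly by the liver, had few counts. *Kng1*, a kininogen gene, had 80 counts in control C6, 15 in *Rora* EKO C2, 1 in control A1 and 0 in the other 5 libraries. *Kng2* had 4 counts in control C6, 3 in *Rora* EKO A3 and 1 each in *Rora* EKO B4 and C2. *Hrg* had 8 counts and *Spp2* had 7 counts in control C6, against at most 1 count in each of the other libraries.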
